A study of Homo sapiens with 14 samples.

Results

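The elongation factors of translation were followed at 6 loci, EEF1A2, EEF1A1, EEF1B2, EEF1G, EEF1D and EEF2, in RNA of HEK293T cells with a knockout of SETD2 and of wild type HEK293T cells. HEK293T is a human embryonic kidney line that carries the SV40 large T antigen, and SETD2 is the enzyme that trimethylates lysine 36 of histone H3 along transcribed genes. The labels list 3 RNA libraries of the knockout and 3 of the wild type, with no further treatment, and do not say whether the knockout cells are 1 clone or whether the libraries of a genotype came from separate cultures. An RNA library of the wild type carries a ChIP protocol in its label. The loci were chosen by position on hg19, each as the locus that holds a given point inside the gene, and they held 119 of the 204092 transcripts in the deposited tables. EEF1A2 was selected on its measured fall in the knockout, which is therefore described here and not tested, and the other 5 loci were taken as its family. No transcript carries a gene name in the files, so the names used are those of the points. For the same reason the level of SETD2 and the markers of kidney cells were not analysed here.

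Elongation adds amino acids to the growing protein. eEF1A carries each aminoacyl-tRNA to the ribosome as a complex with GTP, and human cells encode it in a pair of very similar genes: EEF1A1, used in nearly all tissues, and EEF1A2, whose main sites of expression in the body are neurons, heart and skeletal muscle. After GTP is spent, the eEF1B complex exchanges the bound GDP for GTP. EEF1B2 and EEF1D encode its exchange subunits and EEF1G its structural subunit. EEF2 encodes the GTPase that moves the ribosome to the next codon. The mRNAs of many such factors begin with a C followed by a run of pyrimidines, the 5′ terminal oligopyrimidine tract through which mTOR signalling controls their translation.

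RefSeq promoter windows were matched for 4 of the 6 genes, EEF1A1, EEF1B2, EEF1G and EEF2, and the 5 windows are shown because 3 of them carry a sequence feature that EEF1A1, EEF1B2 and EEF2 share and that played no part in choosing the loci. Each window runs 5′ to 3′ on the gene's strand from 35 bases before the annotated start through the first 15 bases of the transcript. Capitals mark TATAA where it lies between positions -35 and -20, and a C at the start with at least 4 pyrimidines after it. The coordinates are on GRCh38.p14, not on the hg19 build of the expression files.
EEF1A1, chr6:73521018-73521067, minus strand: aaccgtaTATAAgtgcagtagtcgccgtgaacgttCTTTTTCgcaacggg
EEF2, chr19:3985449-3985498, minus strand: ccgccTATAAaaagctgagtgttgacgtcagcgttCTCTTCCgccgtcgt
EEF1B2, the downstream of 2 starts, chr2:206159860-206159909, plus strand: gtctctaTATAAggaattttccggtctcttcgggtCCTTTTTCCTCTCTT
EEF1B2, the upstream start, chr2:206159574-206159623, plus strand: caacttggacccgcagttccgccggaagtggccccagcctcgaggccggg
EEF1G, chr11:62573877-62573926, minus strand: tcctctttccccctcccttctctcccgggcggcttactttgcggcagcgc

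The starts of EEF1A1 and EEF2 and the downstream start of EEF1B2 held both features, and the other 2 windows held neither. TATAA began at position -28 in EEF1A1 and EEF1B2 and at -30 in EEF2. The tract was 7 bases long in EEF1A1 and in EEF2 and 16 bases long in EEF1B2, of which the window shows the first 15. Among 35116 RefSeq starts, 4.07% had a C followed by at least 4 pyrimidines, 3.62% had TATAA in that window, and 31 (0.0883%) had both, searched on the gene's strand only. A match is a description of the sequence and not a measure of its use in these cells. The tract was searched for only at the annotated start, so a missing match does not show that the mRNA lacks one.

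Expression was given by the authors as FPKM, fragments per kilobase of transcript relative to all mapped fragments, with 1 value per transcript and genotype. No value of a single library and no read counts were given, so the depth is unknown, and the errors below are the lower and upper bounds that the authors deposited in a tracking table. A second table holds the authors' tests with its own FPKM values, which are used here unless the tracking table is named. In knockout cells, the tracking value was 0.651 to 41.8 times the test-table value in the 76 member transcripts with 0.5 FPKM or more. In wild type cells this ratio ran from 0.973 to 0.998 in 81 member transcripts, so both values are given for the sums and transcripts described here whose direction differs between the tables. The sources used here do not give which libraries entered either column. Because the RNA was of bulk cells, fewer cells that express a gene and less RNA per cell cannot be told apart.

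EEF1A2, the restricted form of eEF1A, was the elongation factor locus with much lower RNA in the knockout. Summed over its locus at chr20:62119366-62130505, it stood at 29.6 FPKM in knockout cells and 174.2 FPKM in wild type cells, a 5.88-fold difference. In the tracking table the sums were 36.7 FPKM in knockout cells and 170.2 FPKM in wild type cells, a 4.64-fold difference. By level the locus ranked 4617 of 35665 loci in knockout cells and 1147 in wild type cells.

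Both transcripts listed at the locus carried the difference. ENST00000298049 had 19.3 FPKM in knockout cells and 112.9 FPKM in wild type cells. Its intervals did not overlap, running from 13.2 to 35.1 FPKM in knockout cells and from 47.6 to 173.1 FPKM in wild type cells. The anchor transcript ENST00000217182 had 10.3 FPKM in knockout cells and 61.3 FPKM in wild type cells. Its intervals overlapped over most of the knockout interval, at 4.46 to 20.6 FPKM in knockout cells and 5.79 to 113.9 FPKM in wild type cells. The authors' deposited table gives both transcripts a q-value of 0.0220, at log2 folds of -2.55 and -2.57, knockout over wild type. The first transcript was 1.87 times as high as the second in knockout cells and 1.84 times in wild type cells. The make-up of the EEF1A2 RNA, as far as these group values show it, was thus nearly the same in both genotypes, with 65.1% from ENST00000298049 in knockout cells and 64.8% in wild type cells.

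**Figure D1:**
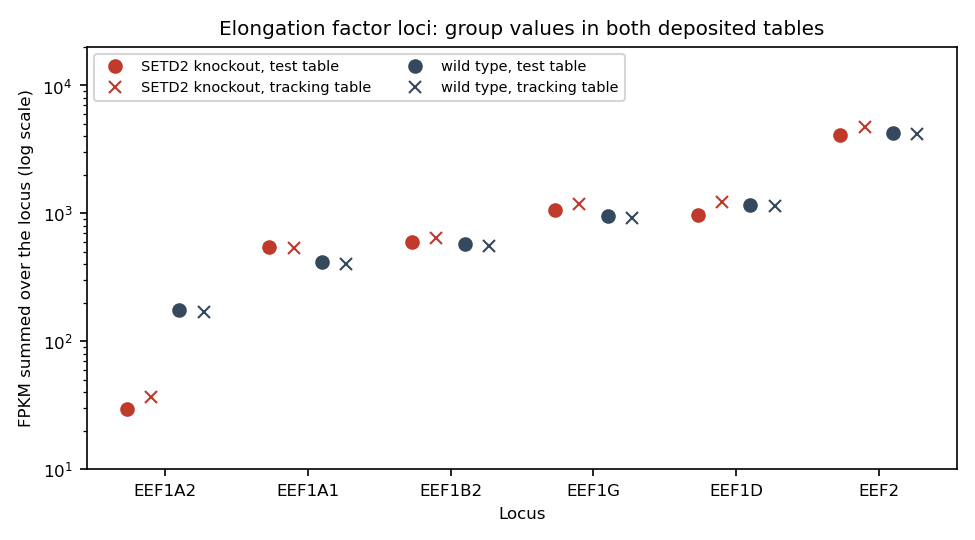
FPKM summed over each elongation factor locus (log axis) in the SETD2 knockout (red) and the wild type (dark blue), from the test table (circles) and the tracking table (crosses), each point being 1 group value. EEF1A2 lies at 29.6 and 36.7 FPKM in knockout cells and at 174.2 and 170.2 FPKM in wild type cells, while the points of the other 5 loci lie close together.

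EEF1A1, the general form of eEF1A, was higher in the knockout in both tables but had no called transcript. Its locus at chr6:74225473-74280319 held 545.2 FPKM in knockout cells and 412.7 FPKM in wild type cells, a log2 fold of 0.40 (0.41 in the tracking table). Its leading transcript, ENST00000356303, had 407.4 FPKM in knockout cells and 310.8 FPKM in wild type cells (q = 0.991 in the authors' deposited table). The intervals of that transcript overlapped over most of their length, at 198.7 to 590.3 FPKM in knockout cells and 138.2 to 468.4 FPKM in wild type cells. ENST00000490569 had 120.9 FPKM in knockout cells and 85.3 FPKM in wild type cells (q = 0.991). The anchor ENST00000309268 was a minor transcript, at 1.52 FPKM in knockout cells and 1.07 FPKM in wild type cells, with tracking values of 1.03 FPKM in knockout cells and 1.04 FPKM in wild type cells. RefSeq lists 50 pseudogenes named after EEF1A1, and the sources used here do not give how reads that fit several copies were counted, so the level of EEF1A1 is uncertain. The locus is also longer than the gene, whose RefSeq neighbours are MTO1 and EEF1A1-AS1, and its sum can hold transcripts of another gene. EEF1A1 and EEF1A2 are similar in sequence too, and reads may have been shared between them.

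Because the 2 genes encode forms of the same factor, their levels were set side by side on the FPKM scale. EEF1A2 made up 5.16% of the sum of the EEF1A1 and EEF1A2 loci in knockout cells and 29.7% in wild type cells. In the tracking table its share was 6.43% in knockout cells and 29.7% in wild type cells. The sum itself was 574.8 FPKM in knockout cells and 586.9 FPKM in wild type cells. EEF1A1 RNA thus stood at 18.4 times EEF1A2 RNA in knockout cells and at 2.37 times in wild type cells. Whether the lower EEF1A2 and the higher EEF1A1 values are linked was not tested. The EEF1A1 sum has no interval, and the authors' intervals of ENST00000356303 and ENST00000490569 overlapped between the genotypes.

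**Figure D2:**
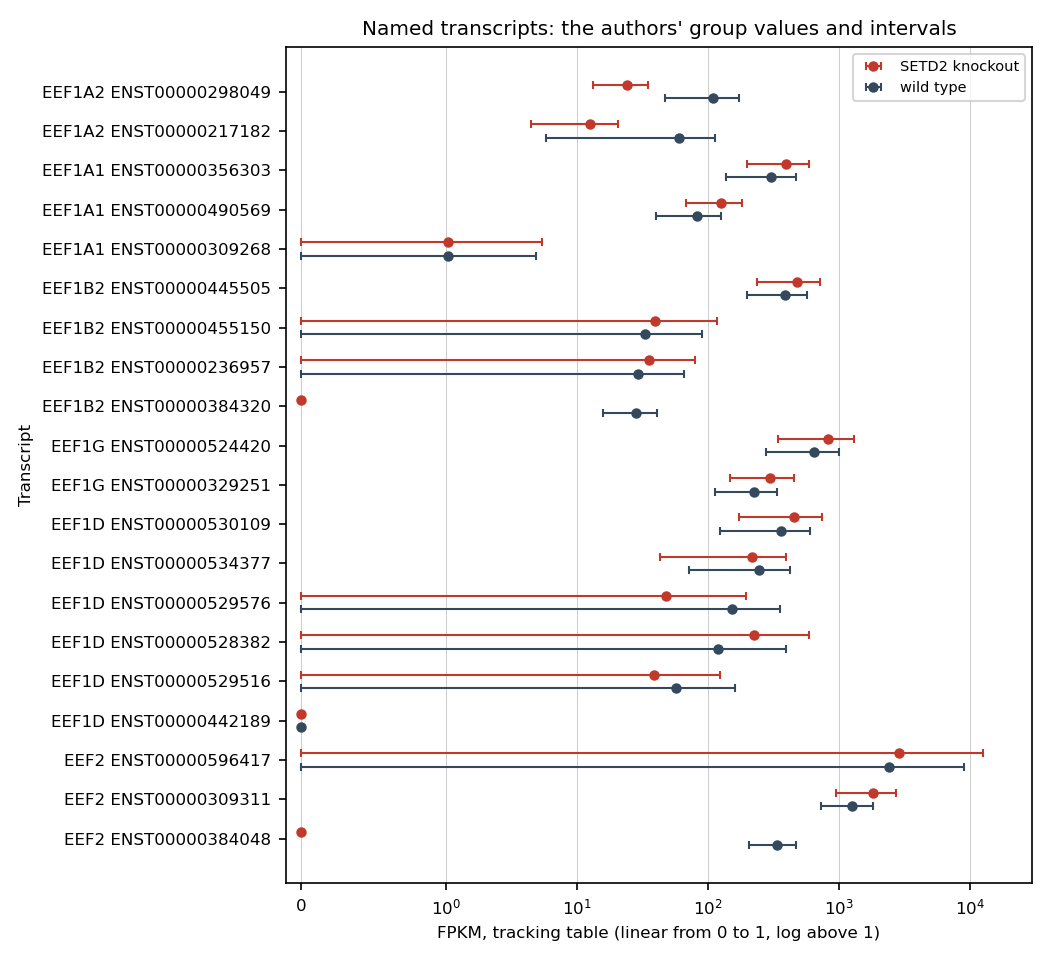
FPKM of the named transcripts in the tracking table, with the authors' lower and upper bounds as bars, in the SETD2 knockout (red, upper of each pair) and the wild type (dark blue); the axis is linear from 0 to 1 and logarithmic above 1. The bars are apart for ENST00000298049 of EEF1A2 and for ENST00000384320 and ENST00000384048, which are listed at 0 in the knockout, and they overlap for the other named transcripts measured above 0.

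The loci of the eEF1B complex had no called transcript. The sums of EEF1B2 and EEF1G, like that of EEF1A1, were higher in the knockout in both tables, which are not known to be independent. EEF1B2, an exchange subunit at chr2:206979541-207027652, had 597.7 FPKM in knockout cells and 571.7 FPKM in wild type cells. Its log2 fold was 0.06 (0.21 in the tracking table). Expressed loci, those of at least 1 FPKM in a genotype and above 0 in both, also had a median of 0.06 in the test table. Of these loci 50.4% had a lower fold than EEF1B2. The tracking value was not ranked in this way. In the test table EEF1B2 thus lay in the middle of the expressed loci, and no rise of its own is read from its fold. Its leading transcript ENST00000445505 had 444.8 FPKM in knockout cells and 397.8 FPKM in wild type cells, and its anchor ENST00000236957 had 39.7 FPKM in knockout cells and 30.0 FPKM in wild type cells (q = 0.991 for both in the authors' deposited table). The intervals of both transcripts overlapped between the genotypes. ENST00000455150 had 19.7 FPKM in knockout cells and 34.1 FPKM in wild type cells in the test table, but 39.7 FPKM in knockout cells and 33.3 FPKM in wild type cells in the tracking table. Its direction therefore depended on the table. The locus runs beyond EEF1B2, whose RefSeq neighbours are NDUFS1 and CMKLR2, and other genes may add to the sum.

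EEF1G, the structural subunit, had no called transcript. At chr11:62327073-62359649 it had 1065 FPKM in knockout cells and 946.6 FPKM in wild type cells, a log2 fold of 0.17 (0.36 in the tracking table). ENST00000524420 held 71.6% of this sum in knockout cells and 69.7% in wild type cells, with 762.4 FPKM in knockout cells and 660.1 FPKM in wild type cells. The anchor ENST00000329251 had 241.1 FPKM in knockout cells and 230.6 FPKM in wild type cells. Neither passed the authors' test, with q = 0.991 for both in the authors' deposited table, and their intervals overlapped. A minor transcript of the locus, ENST00000463241, had the lowest p-value outside EEF1A2 (p = 0.0015 with q = 0.307 in the authors' deposited table), and is named here because of that value. It was listed at 0 in knockout cells and at 2.24 FPKM in wild type cells, and at 0.547 FPKM in the knockout in the tracking table. The RefSeq neighbours of EEF1G are AHNAK and TUT1, and the locus may hold transcripts of another gene. A separate expressed locus, chr11:62201016-62323707, ends 3365 bases before it.

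EEF1D, the other exchange subunit, had the most transcripts, and its direction depended on the table. Its 57 transcripts at chr8:144661806-144682485 summed to 969.4 FPKM in knockout cells and 1159 FPKM in wild type cells, a log2 fold of -0.26, while the tracking table gave 1226 FPKM in knockout cells and 1132 FPKM in wild type cells, a log2 fold of 0.11. A single transcript weighed on the test-table sum. ENST00000529576 had 1.14 FPKM in knockout cells and 157.7 FPKM in wild type cells in the test table, and 47.7 FPKM in knockout cells and 154.1 FPKM in wild type cells in the tracking table. Its tracking intervals reached 0 in both genotypes, up to 197.2 FPKM in knockout cells and 357.3 FPKM in wild type cells, and its q-value in the authors' deposited table was 0.991. Without it the EEF1D sum was 968.2 FPKM in knockout cells and 1001 FPKM in wild type cells, but 1178 FPKM in knockout cells and 978.2 FPKM in wild type cells in the tracking table. The leading transcript ENST00000530109 had 412.2 FPKM in knockout cells and 373.3 FPKM in wild type cells, and ENST00000534377 had 161.0 FPKM in knockout cells and 253.8 FPKM in wild type cells. Their intervals overlapped. ENST00000528382, with 152.4 FPKM in knockout cells and 123.5 FPKM in wild type cells, and ENST00000529516, with 30.4 FPKM in knockout cells and 58.2 FPKM in wild type cells, had intervals that began at 0. Of the 35 tested EEF1D transcripts, 18 were higher and 17 lower in the knockout (20 higher and 15 lower in the tracking table), and the anchor ENST00000442189 was listed at 0 in both genotypes. The RefSeq neighbours of EEF1D are NAPRT and TIGD5, and the locus may hold transcripts of another gene. A separate expressed locus, chr8:144655660-144660819, ends 986 bases before it.

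EEF2, the translocase, was the most abundant elongation factor locus in both genotypes and ranked 26 of 35665 loci in each. At chr19:3976054-3985467 its sum was 4125 FPKM in knockout cells and 4272 FPKM in wild type cells, a log2 fold of -0.05 (0.18 in the tracking table). Its anchor ENST00000309311 had 1637 FPKM in knockout cells and 1306 FPKM in wild type cells (q = 0.991 in the authors' deposited table). The intervals of the anchor overlapped, at 952.4 to 2730 FPKM in knockout cells and 734.4 to 1816 FPKM in wild type cells. ENST00000596417 held 60.0% of the sum in knockout cells and 58.1% in wild type cells, with 2476 FPKM in knockout cells and 2483 FPKM in wild type cells, and with 2883 FPKM in knockout cells and 2426 FPKM in wild type cells in the tracking table. Its intervals were very wide, from 0 to 12712 FPKM in knockout cells and from 0 to 9116 FPKM in wild type cells, so the EEF2 sum is poorly fixed. Without it the locus had 1650 FPKM in knockout cells and 1789 FPKM in wild type cells, but 1851 FPKM in knockout cells and 1747 FPKM in wild type cells in the tracking table.

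Transcripts listed at 0 in the knockout made up a visible part of the EEF2 and EEF1B2 loci in wild type cells. ENST00000384048 of the EEF2 locus was listed at 0 in the knockout in both tables and at 349.9 FPKM in wild type cells, 8.19% of the wild type sum (p = 0.0872 with q = 0.991 in the authors' deposited table). A further EEF2 transcript, ENST00000600794, named because it shared this pattern, was at 0 in knockout cells and 117.6 FPKM in wild type cells, with a wild type interval of 0 to 901.7 FPKM. At the EEF1B2 locus ENST00000384320 was at 0 in knockout cells and 29.0 FPKM in wild type cells (q = 0.991). RefSeq places the snoRNA gene SNORD37 inside EEF2 and the snoRNA genes SNORD51 and SNORA41 inside EEF1B2. The files do not say whether these transcripts are the snoRNAs. Over all transcripts of at least 20 FPKM in wild type cells, 120 of 7491 (1.60%) were at 0 in the knockout in both tables, 113 of the 120 were tested, and the authors called 0 of them, with 5 at an unadjusted p under 0.05. The 3 transcripts named here belong to that set. With these 2 EEF2 transcripts left out, the log2 fold of the EEF2 sum was 0.12, above 0 where the full sum lay below it.

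**Figure D3:**
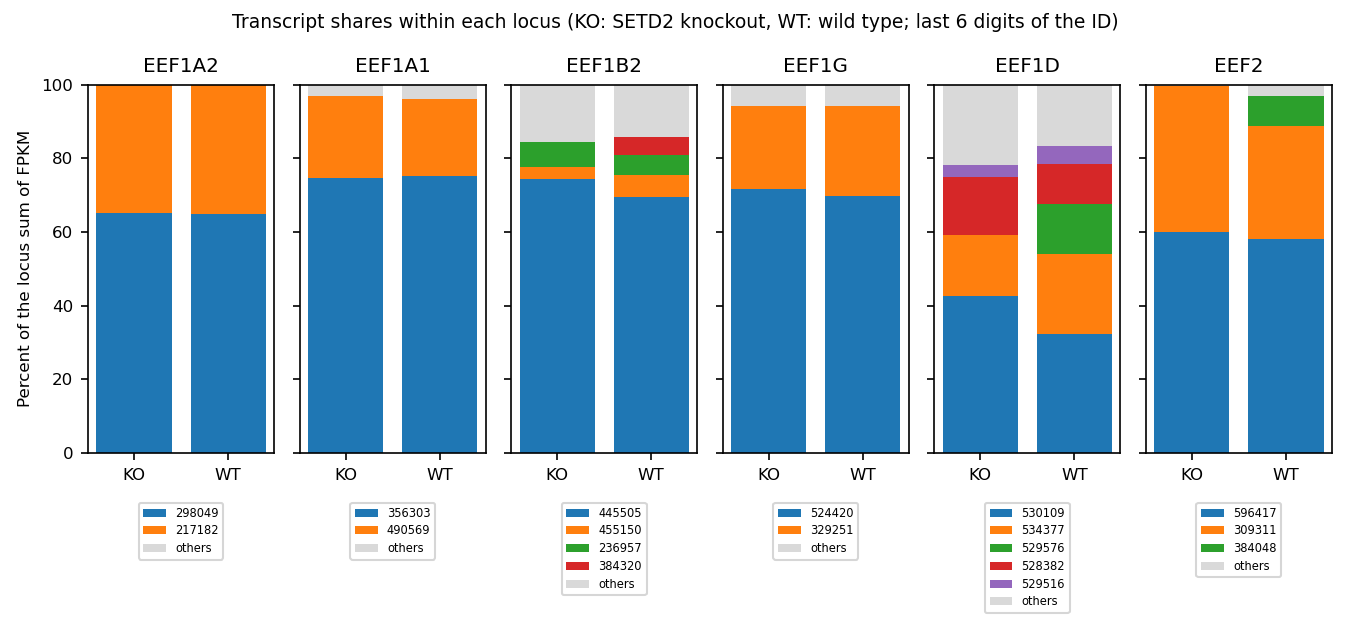
Percent of the summed FPKM of each locus held by its transcripts, in the SETD2 knockout (KO, left bar) and the wild type (WT, right bar), with transcripts of at least 5% in a genotype in colour and the others in grey. The EEF1A2 bars are nearly equal, at 65.1% in knockout cells and 64.8% in wild type cells for the leading transcript, whereas in EEF1D ENST00000529576 holds 0.118% in knockout cells and 13.6% in wild type cells.

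By level in the test table, the order of the loci in the knockout was EEF2, EEF1G, EEF1D, EEF1B2, EEF1A1 and EEF1A2, and in wild type cells it was EEF2, EEF1D, EEF1G, EEF1B2, EEF1A1 and EEF1A2. In the tracking table EEF1D was above EEF1G in both genotypes, with 1226 FPKM for EEF1D and 1185 FPKM for EEF1G in knockout cells, so the order in the knockout was that of the wild type. The leading transcripts of EEF1G and EEF1D had intervals that overlap within each genotype. The highest of the 3 eEF1B loci was 1.78 times the lowest in knockout cells and 2.03 times in wild type cells. EEF2 stood at 7.18 times the sum of EEF1A1 and EEF1A2 in knockout cells and at 7.28 times in wild type cells. These ratios are uncertain, as is the level of EEF1A1. ENST00000596417, with intervals that begin at 0, held 60.0% of the EEF2 sum in knockout cells and 58.1% in wild type cells. Together the 6 loci held 7332 FPKM in knockout cells and 7536 FPKM in wild type cells, which was 0.592% of all FPKM in knockout cells and 0.557% in wild type cells after failed estimates were left out. In the tracking table the order turned, with 8360 FPKM in knockout cells and 7361 FPKM in wild type cells.

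The authors called 2 of the 88 tested member transcripts at a q-value of 0.05, both of EEF1A2 and both lower in the knockout. Over all 85852 tested transcripts 0.255% were called and 0.192% were called lower in the knockout. Since EEF1A2 was selected on this contrast, nothing is read from its 2 calls. The lowest q-value among the other 86 was 0.307, and 1 of the 86, ENST00000463241, had an unadjusted p under 0.05. The intervals of both genotypes did not overlap for 3 of the 88, against 0.632% of all tested transcripts. These were ENST00000298049 and the 2 transcripts at 0 in the knockout, ENST00000384048 and ENST00000384320. ENST00000298049 is of EEF1A2, which was selected on this contrast. The knockout intervals of the other 2 run from 0 to 0, so any wild type lower bound above 0 sets them apart. No excess is therefore read from the 3. The remaining 31 member transcripts were not tested by the authors, and 23 of all 119 were listed at 0 in both genotypes. Of the 74 tested member transcripts above 0 in both genotypes, 42 were higher and 32 lower in the knockout. Their median log2 fold was 0.08, beside 0.11 over the 75399 such transcripts of the whole table. The share higher in the knockout was 56.8% of the 74 and 55.0% of the 75399. The 97 member transcripts not named reached at most 29.4 FPKM.

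What the deposited test could call at these levels bears on the 5 loci with no call. Of 1650 tested transcripts of at least 100 FPKM in a genotype the authors called 8, and the smallest fold among those above 0 in both genotypes was 1.99. Outside EEF1A2, 11 member transcripts of that level were above 0 in both genotypes, and 8 of these stood higher in knockout cells (9 in the tracking table). Of all tested transcripts above 0 in both genotypes 55.0% stood higher, and the share at this level alone was not computed. Apart from ENST00000529576 the 11 member transcripts differed by at most 1.58-fold. Differences of this size were not called at this level, so the missing calls do not show that these factors were equal in both genotypes.

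To see whether EEF1A2 moved with its surroundings, the 5 nearest expressed loci on each side were taken, those of at least 1 FPKM in a genotype and above 0 in both. The median log2 fold of the 10 loci around EEF1A2 was -0.04 (0.14 in the tracking table), beside 0.06 for all 12467 expressed loci. None of the 10 lay as low as EEF1A2 at -2.55. EEF1A2 was selected on its fall and 1.27% of all expressed loci lay lower, so little is read from this. Of the 10, 2 held a transcript that the authors called. The share of all expressed loci with such a transcript was not computed, so nothing is read from that count.

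The nearest expressed locus after EEF1A2 in the order of coordinates, chr20:62152077-62153559, had 238.3 FPKM in knockout cells and 245.7 FPKM in wild type cells, and 265.1 FPKM in knockout cells and 239.9 FPKM in wild type cells in the tracking table. The outermost of the 5 loci after EEF1A2, at chr20:62271061-62284780, held the transcript ENST00000370053, named because the authors called it, with 9.70 FPKM in knockout cells and 22.4 FPKM in wild type cells (q = 0.0220 in the authors' deposited table). The other 3 loci after EEF1A2 had log2 folds of -0.11, 0.45 and -0.03, or -0.33, 0.50 and 0.27 in the tracking table. Around the other elongation factors the medians of 10 loci were -0.20 for EEF1A1, 0.20 for EEF1B2, -0.12 for EEF1G, -0.05 for EEF1D and -0.22 for EEF2. In the tracking table those of EEF1G, EEF1D and EEF2 lay above 0, at 0.02, 0.10 and 0.13.

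Among 5615 loci of at least 20 FPKM in wild type cells and above 0 in the knockout, 40 had a lower log2 fold than EEF1A2. The 5 whose folds were nearest to that of EEF1A2 lay on other chromosomes, and with 1 value per genotype this likeness rests on 2 group values only. They were chr11:65405568-65418401, chrX:107963179-107982133, chr19:18979361-19007536, chr17:27046411-27070473 and chr17:36858705-36886056, with log2 folds from -2.60 to -2.52. In the tracking table their log2 folds ran from -2.73 to -1.74, beside -2.21 for EEF1A2, so the closeness of the folds did not hold there. Their levels differed widely. The locus on chromosome 19 had 7.55 FPKM in knockout cells and 43.3 FPKM in wild type cells, and the first locus on chromosome 17 had 285.2 FPKM in knockout cells and 1637 FPKM in wild type cells, or 480.5 FPKM in knockout cells and 1602 FPKM in wild type cells in the tracking table. The loci on chromosomes X and 19 held 1 called transcript each and the other 3 held 0.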

How the data were processed

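The submitters' processing notes name TopHat, Cuffdiff, Bowtie 1.1.2 and hg19 but give them no role; which annotation was used is not given in these sources. The authors deposited FPKM per transcript and genotype, with bounds of unstated level in the tracking table. Their test table adds, per the file headers, a test statistic (a score), a p-value, a q-value and the log2 of wild type over knockout. Folds were turned to knockout over wild type and recomputed, differing from the deposited ones by at most 5.43e-05 among tested transcripts.

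The members and lists were chosen with earlier results of these data known. FPKM were summed over the transcripts of a locus, without those of status HIDATA or FAIL (0 among the members). File starts had 1 added. No test between libraries was possible, and calls are those of the authors at a q-value of 0.05. What spread between libraries their q-values rest on is not given in these sources, and the libraries of a genotype may be technical repeats. Transcripts were named as anchors, when called, or at 5% of a locus sum in a genotype. The other elongation genes listed for counting have no hg19 position in the tables used, and were not analysed here; neither were the 8 ChIP samples. A result of the neighbour comparison is not reported here. The summing and neighbour search were tested on simulated data. Software was Python 3.11.15, pandas 2.3.3, numpy 2.4.6 and matplotlib 3.10.9.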

Additional observations from a re-analysis of the deposited data

How the results depend on the processing

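Of 101 alternative values of 27 results, 98 lay within 1.5-fold of the reported value. This bound was set by choice and does not measure the spread between libraries, for which no values were given. Some alternatives could not differ, since keeping failed estimates changed no value where 0 member transcripts had failed. The EEF1A2 fold ran from -2.61 to -2.21 (log2) over 7 alternatives. At a q-value of 0.01, 0 member transcripts were called. Both EEF1A2 transcripts have the same q-value in the authors' deposited table, 0.0220, as the called transcript ENST00000370053 near EEF1A2. Whether any transcript of the authors' test could reach 0.01 was not examined, so nothing is read from this count. With the anchor transcripts alone, EEF1A2 made up 87.2% of both eEF1A genes in knockout cells and 98.3% in wild type cells, because the EEF1A1 anchor is a minor transcript. Signs turned in 11 values. For EEF1D this was in the tracking table (0.11). For EEF2 it was in the tracking table (0.18), by its anchor (0.33) and without transcripts at 0 (0.12). The other 7 were neighbour medians. No transcript of EEF1D or EEF2 was called. The alternatives without transcripts at 0, without ENST00000529576 and without ENST00000596417 were chosen after seeing the data. No paired analysis was possible because the files give 1 value per genotype; leaving out replicates was not run for the same reason. Depth is unknown, so which small differences could be seen is known only through the authors' calls.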
